A study of Mus musculus with 9 samples.

Results

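The genes described here are 35 genes of the oligodendrocyte lineage and of myelin, taken by gene symbol from a list, and they were followed in RNA-seq of mouse midbrain. All 35 were among the 26602 genes with a count, and all 35 were among the 18127 genes that had at least 10 counts over the 9 libraries and could be tested. The study compared mice that lack DJ-1 with control mice in order to look for molecular changes in the brain of young animals. The tissue was the midbrain with the substantia nigra pars compacta (SNpc), snap frozen after dissection, from 4 DJ-1+/+ (wild-type) and 5 DJ-1-/- (homozygous for the targeted DJ-1 allele) mice of 3 to 4 months, with 1 library per animal. Both genotypes came from heterozygous breeding pairs of a line that had been backcrossed for 7 generations to C57BL/6, and the labels list no treatment for either group. The targeted allele was inherited through the germline and so was not limited to oligodendrocytes. The tissue held all cell types of the dissected midbrain, so fewer oligodendrocytes and less RNA per oligodendrocyte cannot be told apart.

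Oligodendrocytes are the glial cells that wrap axons of the brain and spinal cord in myelin, a stack of lipid-rich membrane held together by a small set of abundant proteins. They arise from precursor cells that carry the PDGF receptor alpha and the proteoglycan NG2, pass through a short premyelinating stage, and then switch on the genes for myelin proteins and myelin lipids under the control of Olig2, Sox10 and Myrf. In the midbrain, myelinated fibres run through the cerebral peduncle next to the SNpc.

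Levels are given as cpm, which is the count of a gene divided by the total count of its library and multiplied by 1000000. Library totals ran from 841974 to 886085 counts in DJ-1+/+ and from 967751 to 1098125 counts in DJ-1-/- mice, so the libraries of DJ-1-/- mice were deeper throughout. The counts are of molecules tagged at the 3′ end of a transcript and were not scaled by gene length. Park7, the gene for DJ-1 and the target of the knockout, was at 157, 119, 131 and 133 cpm in the DJ-1+/+ libraries and at 23, 26.4, 14.4, 19.6 and 18.5 cpm in the DJ-1-/- libraries. The groups did not overlap, and the log2 fold change of Park7 was -2.71 ± 0.15 (SE; edgeR quasi-likelihood test, adjusted p = 7.39e-08). Park7 therefore went with the genotype labels in 9 of 9 libraries. Sums of marker lists of neighbouring tissue stood apart in 3 libraries. The choroid plexus list summed to 366 cpm in DJ-1+/+ replicate 1 and 775 cpm in DJ-1+/+ replicate 4 against 146 to 243 cpm in the others. The cerebellar list summed to 1061 cpm in DJ-1+/+ replicate 1 against 245 to 459 cpm. The Schwann cell list summed to 125 cpm in DJ-1-/- replicate 2 against 58.2 to 84.7 cpm. DJ-1-/- replicate 5 did not stand apart in these sums. Otx2 of the choroid plexus list was nevertheless at 69.2 cpm there and at 81.3 cpm in DJ-1+/+ replicate 4. In the other libraries Otx2 was at 9.01 to 47.5 cpm. Tcf7l2, of the further oligodendrocyte genes described below, was at 323 cpm in DJ-1+/+ replicate 4 and at 322 cpm in DJ-1-/- replicate 5. In the other libraries Tcf7l2 was at 81.1 to 166 cpm. Xist, the transcript of the silenced X chromosome of females, was at 0 to 2 counts in DJ-1+/+ replicates 1 and 4 and in DJ-1-/- replicate 5, and at 146 to 193 counts in the other 6 libraries.

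Summed levels of myelin and oligodendrocyte transcripts overlapped between DJ-1-/- and DJ-1+/+ midbrain. In DJ-1+/+ mice the 35 genes summed to a mean of 5731 ± 619 cpm (SD, n = 4), and in DJ-1-/- mice they summed to a mean of 5707 ± 368 cpm (SD, n = 5). The sum was 6104, 4987, 6358 and 5476 cpm in DJ-1+/+ replicates 1 to 4, and 6267, 5866, 5332, 5564 and 5503 cpm in DJ-1-/- replicates 1 to 5. The range of the DJ-1-/- libraries lay wholly inside that of the DJ-1+/+ libraries, and the 35 genes held between 0.499% and 0.636% of all counts of a library. Of the 35 genes, 19 had positive and 16 negative log2 fold changes (DJ-1-/- relative to DJ-1+/+). Their median was 0.01, and the median over all 18127 tested genes was 0.01 as well.

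At an unadjusted p under 0.05 in the edgeR quasi-likelihood test, 1 of the 35 genes (2.86%) was called, and this was Gjc3, which was lower in DJ-1-/- mice. Over all tested genes this threshold called 513 genes, or 2.83%, and in the downward direction 228 genes, or 1.26%. After Benjamini-Hochberg adjustment over all tested genes, 0 of the 35 passed 0.05 by edgeR or by DESeq2, and edgeR called 1 gene of the whole table, Park7, or 0.00552%. No member had levels without overlap between the genotypes, against 226 tested genes, or 1.25%, over the whole table. The share of members called was thus close to the share over all genes. The edgeR p-values set a difference against the spread among these 9 libraries only. That spread holds counting error as well as differences between animals.

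The intervals of the differences were narrow. The log2 fold changes of the 35 genes ran from -0.25 to 0.23, with standard errors between 0.07 and 0.21 and a median of 0.10, and 30 of the 35 lay within 0.1 of 0. The 95% interval of the log2 fold change was inside ±0.5 for 33 of the 35 genes and inside ±1 for 35 of 35. Among the 8986 tested genes with a mean at least as high as the lowest member (35.8 cpm), the interval was inside ±0.5 for 85.8% and inside ±1 for 99.2%. The exceptions at ±0.5 were Ppp1r14a, with an upper bound of 0.60, and Cspg4, with an upper bound of 0.64.

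**Figure D1:**
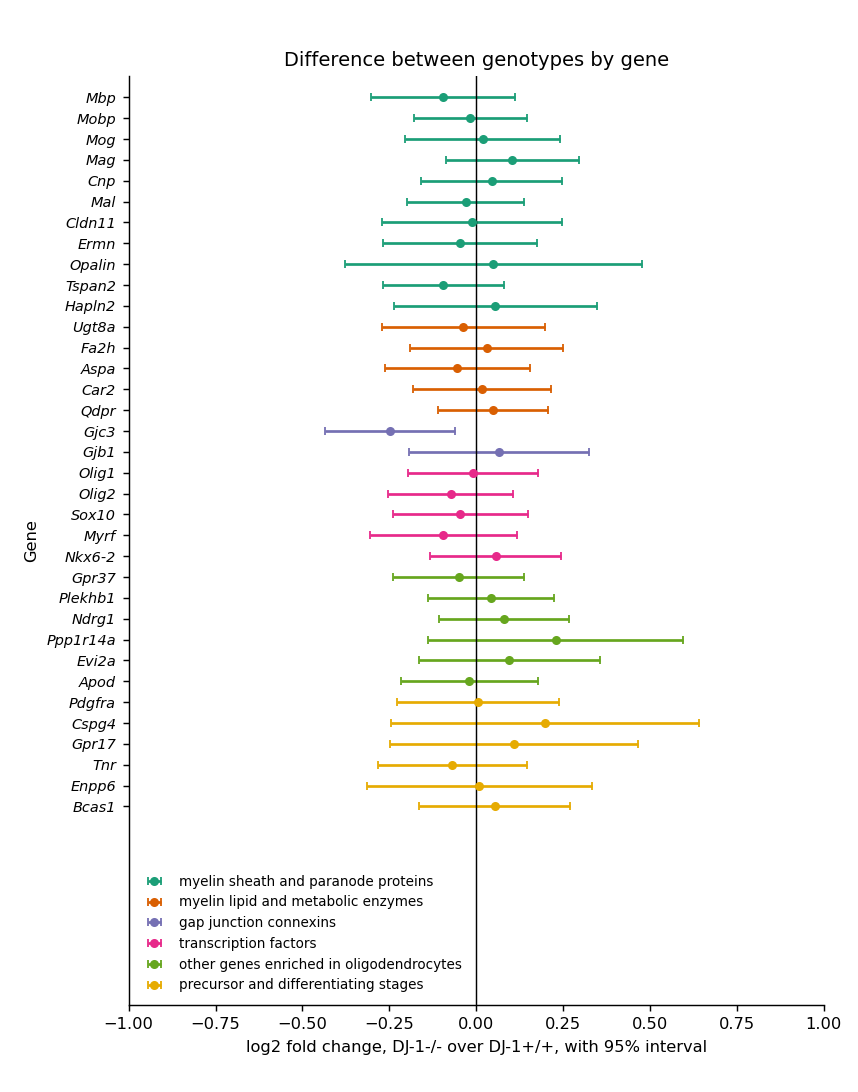
Log2 fold change of each of the 35 genes in DJ-1-/- relative to DJ-1+/+ mice (x axis, log2 scale) with its 95% interval, grouped by role (y axis). Gjc3, at -0.25, is the 1 gene whose interval leaves out 0, and 30 of the 35 points lie within 0.1 of 0.

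The first group was that of the myelin sheath and paranode proteins, with 11 members. None of the 11 was called at the unadjusted threshold, and 5 had positive and 6 negative log2 fold changes around a median of -0.01. Mbp, which encodes myelin basic protein and holds the cytoplasmic faces of the membrane together, had the most counts of the 35 genes. It was at 597, 450.1, 625 and 498 cpm in the DJ-1+/+ libraries and at 589, 525, 505, 458 and 459 cpm in the DJ-1-/- libraries. The highest and the lowest value both came from DJ-1+/+ mice, and the log2 fold change was -0.10 ± 0.10 (SE; edgeR, unadjusted p = 0.343). Mobp, the gene for myelin-associated oligodendrocyte basic protein, was at 488, 385, 509.6 and 454 cpm in DJ-1+/+ and at 474, 463, 438, 442 and 450.2 cpm in DJ-1-/- mice. Its 5 DJ-1-/- libraries lay close together inside the DJ-1+/+ range, and the log2 fold change was -0.02 ± 0.08 (SE; edgeR, unadjusted p = 0.83).

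The other sheath genes had log2 fold changes of like size. Cnp, the gene for a phosphodiesterase of non-compact myelin, had a log2 fold change of 0.04, and Mag, an adhesion protein of the membrane next to the axon, had the highest of this group at 0.10 ± 0.09 (SE; edgeR, unadjusted p = 0.268). Mog, a protein of the outermost myelin surface, was at 0.02, Mal, a proteolipid, at -0.03, and Cldn11, the tight junction claudin of the sheath, at -0.01. Ermn, a cytoskeletal protein of mature cells, was at -0.05 and Tspan2, a tetraspanin, at -0.09. Hapln2, a link protein of the matrix at the node of Ranvier, was at 0.06. Opalin, a membrane glycoprotein of oligodendrocytes, was the least certain of the group: it varied from 45.5 to 98.2 cpm among the DJ-1+/+ libraries alone, and its log2 fold change was 0.05 ± 0.20 (SE).

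**Figure D2:**
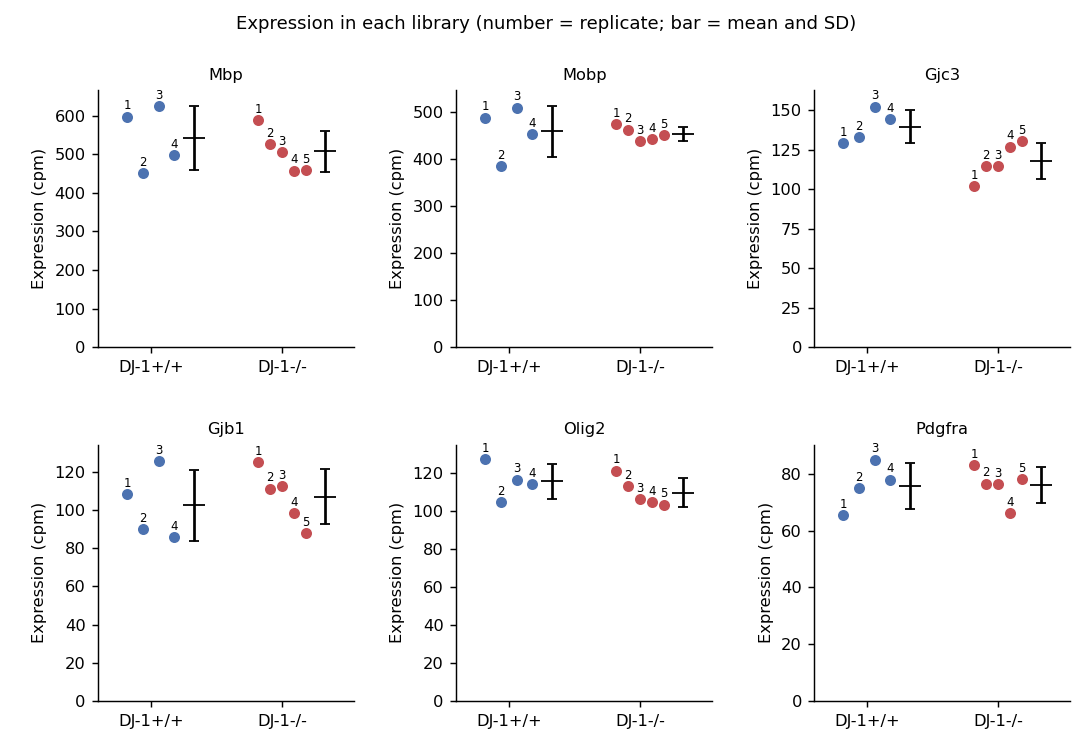
Level in cpm (y axis, from 0) of Mbp, Mobp, Gjc3, Gjb1, Olig2 and Pdgfra in every library (points numbered by replicate) for DJ-1+/+ and DJ-1-/- mice, with the group mean and SD beside the points. Points of both genotypes overlap in every panel, and in the panel of Gjc3 the overlap is that of DJ-1-/- replicate 5 with DJ-1+/+ replicate 1.

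The enzymes of myelin lipid and of oligodendrocyte metabolism, with 5 members, also overlapped between the genotypes, and none was called. Qdpr, which regenerates tetrahydrobiopterin and is abundant in oligodendrocytes, was at 219, 194, 230.4 and 202 cpm in DJ-1+/+ and at 216, 239, 201, 227 and 209 cpm in DJ-1-/- libraries. The log2 fold change of Qdpr was 0.05 ± 0.07 (SE; edgeR, unadjusted p = 0.517), the smallest error of the 35 genes. Car2, the gene for carbonic anhydrase II, was at 227, 164, 208 and 170.4 cpm in DJ-1+/+ and at 208, 203, 183, 190.1 and 186 cpm in DJ-1-/- libraries. Here again the DJ-1-/- values lay inside the DJ-1+/+ range, with a log2 fold change of 0.02 ± 0.09 (SE; edgeR, unadjusted p = 0.865). The genes for galactolipid synthesis were Ugt8a, which adds galactose to ceramide, at a log2 fold change of -0.04, and Fa2h, which hydroxylates the fatty acid, at 0.03. Aspa, which releases acetate from N-acetylaspartate for lipid synthesis, was at -0.05.

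The connexins gave the one called gene. Gjc3 encodes connexin 29, which lies in the innermost myelin membrane along the axon. Its level was 129, 133, 152 and 144 cpm in DJ-1+/+ replicates 1 to 4 and 102, 115, 115, 127 and 131 cpm in DJ-1-/- replicates 1 to 5. The groups overlapped only in that DJ-1-/- replicate 5 was above DJ-1+/+ replicate 1, so 4 of the 5 DJ-1-/- libraries were below every DJ-1+/+ library. The means were 139.8 ± 10.6 cpm (SD, n = 4) and 118 ± 11.4 cpm (SD, n = 5), and the log2 fold change was -0.25 ± 0.09 (SE), with a 95% interval of -0.43 to -0.06. This rested on an unadjusted p of 0.0126 in the edgeR quasi-likelihood test and did not hold after adjustment over all genes (adjusted p = 1). An exact two-sided permutation test of its cpm gave p = 0.0317, where 0.0159 is the smallest value that 4 against 5 libraries allow.

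The call of Gjc3 was lost when DJ-1+/+ replicate 3 was left out and was kept when any other single library was left out. It was also lost when 3 libraries were left out together. Without DJ-1+/+ replicate 3, the log2 fold change of Gjc3 was -0.21 with an unadjusted p of 0.0505 (edgeR). Without the 3 libraries that had markers of other tissue, it was -0.26 with an unadjusted p of 0.0576 (edgeR). Among the 6 libraries that express Xist, Gjc3 was at 133 and 152 cpm in DJ-1+/+ and at 102 to 127 cpm in DJ-1-/- mice, a log2 ratio of the means of -0.32. Among the 3 without Xist it was at 129 and 144 cpm in DJ-1+/+ and at 131 cpm in the single DJ-1-/- library, a log2 ratio of -0.07. That single library, replicate 5, is also the one through which the genotypes overlapped. The split therefore cannot show whether the difference in Gjc3 depends on sex. As a share of the summed level of the 35 genes, Gjc3 made up 2.12% to 2.67% in DJ-1+/+ and 1.63% to 2.37% in DJ-1-/- libraries, a difference that did not pass an exact two-sided permutation test (p = 0.0952). Gjb1 encodes connexin 32, the gap junction protein of the outer layers of the sheath. It was at 108, 89.8, 126 and 85.8 cpm in DJ-1+/+ and at 125, 111, 112, 98.2 and 87.7 cpm in DJ-1-/- mice. The values of Gjb1 overlapped over nearly their whole range, with a log2 fold change of 0.07 ± 0.12 (SE; edgeR, unadjusted p = 0.6). Its log2 ratio of the means was 0.05 among the 6 libraries with Xist and -0.14 among the 3 without, again with a single DJ-1-/- library.

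None of the 5 transcription factors was called, and 1 had a positive and 4 a negative log2 fold change around a median of -0.05. Olig2, which specifies the lineage, was at 127, 105, 116 and 114 cpm in DJ-1+/+ and at 121, 113, 106, 104 and 103 cpm in DJ-1-/- libraries, a log2 fold change of -0.07 ± 0.08 (SE). Olig1, its neighbour on chromosome 16 and a factor of maturation, was at 165, 133, 151 and 142 cpm and at 163, 131, 149.6, 138 and 152 cpm, a log2 fold change of -0.01 ± 0.09 (SE). Both genes had DJ-1+/+ replicate 1 as their highest library. Sox10, which is needed for myelin gene expression, was at 147, 139.8, 136 and 126 cpm in DJ-1+/+ and at 158, 130.2, 115, 132 and 129.6 cpm in DJ-1-/- libraries, a log2 fold change of -0.05 ± 0.09 (SE). Myrf, the membrane-bound factor that switches on and maintains myelin genes, was at 124, 102, 118 and 90.3 cpm and at 110.1, 105, 95.9, 92.0 and 103 cpm, a log2 fold change of -0.09 ± 0.10 (SE). Nkx6-2, a homeodomain factor of mature oligodendrocytes, was the 1 factor of the 5 with a higher mean in DJ-1-/- mice. Its level was 126, 113, 123 and 109 cpm in DJ-1+/+ and 135, 126, 112, 132 and 106 cpm in DJ-1-/- libraries, a log2 fold change of 0.06 ± 0.09 (SE). In each of the 5 factors the genotypes overlapped, and the lowest unadjusted p was 0.358 (edgeR, adjusted p = 1).

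The 6 other genes enriched in oligodendrocytes were not called either, and 4 had positive and 2 negative log2 fold changes. Apod, the gene for the lipid carrier apolipoprotein D, was at 297, 269, 311 and 239 cpm in DJ-1+/+ and at 325, 278, 268, 239 and 264 cpm in DJ-1-/- libraries. Plekhb1, which encodes a pleckstrin homology domain protein, was at 255, 210.3, 258 and 238 cpm in DJ-1+/+ and at 271, 253, 216, 268 and 230.0 cpm in DJ-1-/- libraries. Both genes had their highest library in DJ-1-/- replicate 1, and their log2 fold changes were -0.02 and 0.04. Ndrg1 was at a log2 fold change of 0.08, Evi2a at 0.10, and Gpr37, an orphan receptor linked to oligodendrocyte differentiation, at -0.05, with DJ-1-/- replicate 3 at 116 cpm and the other 8 libraries at 139.6 to 158 cpm. Ppp1r14a, an inhibitor of myosin phosphatase, had the largest upward value of the 35 genes, 0.23 ± 0.17 (SE; edgeR, unadjusted p = 0.205). Its 9 libraries ranged from 65.9 cpm in DJ-1+/+ replicate 2 to 144 cpm in DJ-1-/- replicate 1, a 2.19-fold range that was the widest of the 35 genes. Without DJ-1+/+ replicate 3, the log2 fold change of Ppp1r14a was 0.41 with an unadjusted p of 0.0314 (edgeR).

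Genes of earlier stages overlapped between the genotypes as well. None of the 6 was called, and 5 had positive values and 1 a negative value around a median log2 fold change of 0.03. Pdgfra, the PDGF receptor alpha of precursor cells, was at 65.3, 75.0, 84.9 and 77.9 cpm in DJ-1+/+ and at 83.1, 76.5, 76.3, 66.1 and 78.0 cpm in DJ-1-/- libraries, a log2 fold change of 0.00 ± 0.11 (SE). Cspg4, the gene for NG2, which pericytes also express, was at 32.1, 23.9, 33.7 and 42.9 cpm and at 47.0, 41.9, 40.2, 25.8 and 35.1 cpm. Cspg4 had the fewest counts of the 35 genes, 308 over the 9 libraries, and its log2 fold change of 0.20 ± 0.21 (SE) had the widest error. Gpr17, a receptor of the premyelinating stage, was at 38, 46.6, 31.4 and 50.8 cpm in DJ-1+/+ and at 46, 51, 43.3, 47.5 and 37 cpm in DJ-1-/- libraries, a log2 fold change of 0.11 ± 0.17 (SE). Enpp6, a choline phosphodiesterase of newly formed oligodendrocytes, was at 90.3, 77.3, 119.8 and 68.8 cpm and at 112, 96.5, 82.5, 81.6 and 74.1 cpm, a log2 fold change of 0.01 ± 0.15 (SE). The DJ-1+/+ range of Enpp6 held all 5 DJ-1-/- values, and that of Gpr17 held 4 of them. Bcas1, which is found in cells that are starting to myelinate and in myelin itself, was at 227, 191, 285 and 227 cpm in DJ-1+/+ and at 262, 249.5, 218, 261 and 214 cpm in DJ-1-/- libraries, a log2 fold change of 0.05 ± 0.10 (SE). Tnr, the matrix protein tenascin-R, was at 156, 116, 123 and 132 cpm and at 113, 129, 110.4, 137 and 136 cpm, a log2 fold change of -0.07 ± 0.10 (SE). As a share of the summed level of the 35 genes, Pdgfra and Cspg4 together made up 1.6% to 2.21% in DJ-1+/+ and 1.65% to 2.19% in DJ-1-/- mice. The 6 genes of this group made up 9.96% to 10.9% and 10.4% to 11.1%, and these shares overlapped between the genotypes. Bcas1, which is also found in myelin, had the highest mean of the 6. This share is therefore not a balance of early against mature transcripts.

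**Figure D3:**
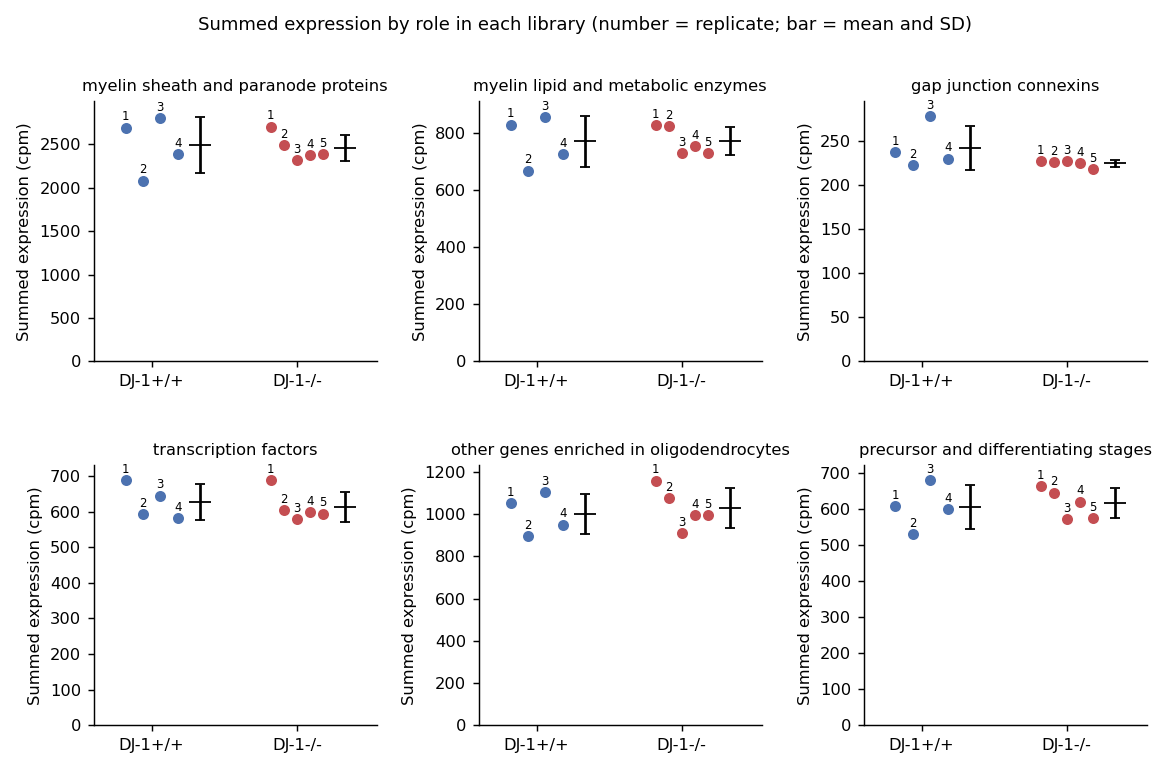
Summed level in cpm (y axis, from 0) of the genes of each of the 6 roles in every library (points numbered by replicate), with group mean and SD. The genotypes overlap in each role, and DJ-1+/+ replicate 2 is the lowest library for the sheath proteins (2079.8 cpm) while DJ-1+/+ replicate 3 is the highest (2800.3 cpm).

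Libraries of one genotype also differed from each other. DJ-1+/+ replicate 2 was the lowest of the 9 libraries for 19 of the 35 genes and the highest for 0. Among the 8986 genes with a mean of at least 35.8 cpm, the same library was the lowest for 13.3%. DJ-1+/+ replicate 3 and DJ-1-/- replicate 1 were each the highest library for 11 members, against 12.2% and 10.2% of those genes. Between DJ-1+/+ replicates 2 and 3, 32 of the 35 genes were lower in replicate 2, with a median log2 ratio of -0.30. Of those 8986 genes 51.4% were lower, and their median log2 ratio was -0.01. The exceptions were Sox10, Gpr37 and Gpr17, whose log2 ratios were 0.04, 0.17 and 0.55. These libraries were picked for this description after their values were seen.

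Other cell markers differed between these libraries too. In DJ-1+/+ replicate 2 the astrocyte list summed to 1618 cpm, the lowest of the 9, and in replicate 3 to 1854 cpm. The dopaminergic list went the other way, with 908 cpm in replicate 2 and 559.6 cpm in replicate 3. The part of these other cells in the differences was not tested.

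**Figure D4:**
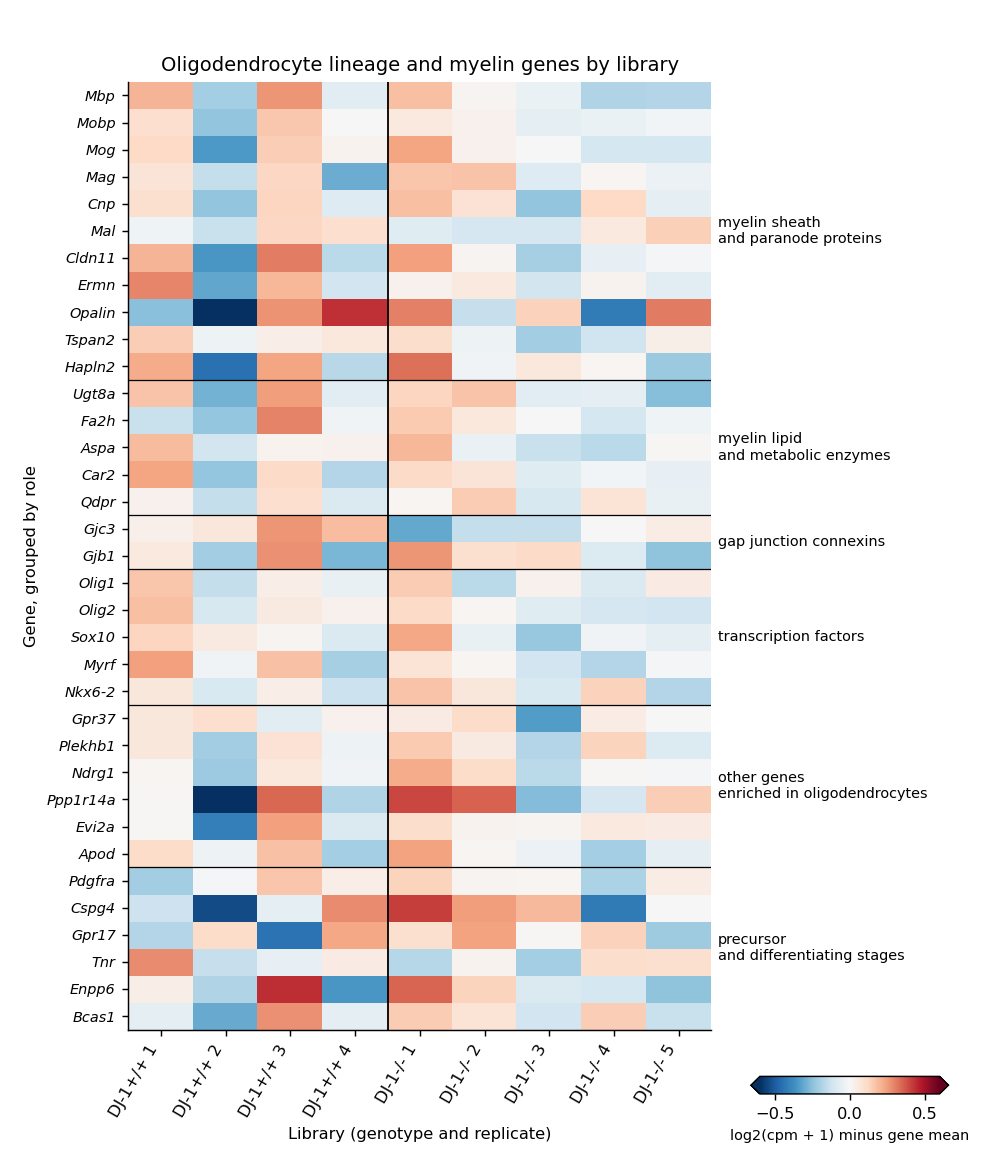
Level of each of the 35 genes (y axis, by role) in each library (x axis) as log2(cpm + 1) minus the mean of that gene over the 9 libraries, from blue (lower) to red (higher). The column of DJ-1+/+ replicate 2 is mostly blue, those of DJ-1+/+ replicate 3 and DJ-1-/- replicate 1 mostly red, and no block of colour follows the genotype.

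The spread within a genotype could be set against counting error, since a count has a relative error of about 1 over its square root. The spread over the libraries of a genotype was a median of 1.30 times the counting error over the 35 genes and ran from 0.759 times for Olig2 to 2.88 times for Mbp. For 6 genes it was below the counting error, and for 14 genes it was more than 1.5 times as large. Among the 8986 genes with a mean of at least 35.8 cpm, the median was 1.03 times, and 15.0% were over 1.5 times. These genes share only that lower limit with the 35 and were not matched to them by count. This ratio holds the spread between animals as well as technical spread and can be larger for genes with more counts. It therefore neither ranks the roles nor shows that the 35 genes vary more than other genes of like count.

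Further genes of the same cells were examined as a second list, with no gene shared with the 35. Of 31 further oligodendrocyte genes, 16 had positive and 15 negative log2 fold changes around a median of 0.01, and edgeR called none at an unadjusted p under 0.05. The ends of this list were Nkx2-2, a factor of differentiation, at -0.37 ± 0.30 (SE), and Erbb3, a neuregulin receptor, at 0.18 ± 0.24 (SE), both with levels below 35 cpm. Of 10 further precursor genes, 3 had positive and 7 negative log2 fold changes, from -0.14 for Xylt1 to 0.06 for Vcan, and again none was called.

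Myelin membrane needs much cholesterol, which oligodendrocytes and astrocytes make within the brain. Of 19 enzymes of cholesterol synthesis, 13 had positive and 6 negative log2 fold changes, around a median of 0.06. At an unadjusted p under 0.05, which called 2.83% of all genes, 1 of the 19 was called: Mvd, mevalonate diphosphate decarboxylase, which was at 57.0, 78.4, 61.7 and 63.2 cpm in DJ-1+/+ and at 82.1, 73.8, 81.5, 77.5 and 81.9 cpm in DJ-1-/- mice. The groups overlapped through DJ-1+/+ replicate 2, and the log2 fold change of Mvd was 0.28 ± 0.11 (SE; edgeR, unadjusted p = 0.022, adjusted p = 1). An exact two-sided permutation test of its cpm gave p = 0.0476. The ends of the list were Sqle, squalene epoxidase, at -0.14 ± 0.08 (SE) and Idi1, an isomerase, at 0.38 ± 0.32 (SE). For Sqle the exact permutation test gave p = 0.0476, against an unadjusted p of 0.146 in edgeR.

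Lists of other cells show what the piece of tissue held. Markers of neurons summed to 2239 to 2511 cpm, of astrocytes to 1618 to 1889 cpm, of microglia to 573 to 658 cpm and of endothelial cells to 342 to 456 cpm, and the sums overlapped between the genotypes in each. Of the 8 neuron genes, 1 was called at an unadjusted p under 0.05: Eno2, neuron-specific enolase, at 261, 295, 282 and 279 cpm in DJ-1+/+ and 317, 308, 289, 323 and 304 cpm in DJ-1-/- libraries, a log2 fold change of 0.14 ± 0.06 (SE; edgeR, unadjusted p = 0.0378, adjusted p = 1). The exact permutation test of Eno2 gave p = 0.0317. Syt1 was the lowest of that list at -0.10. None of the 8 astrocyte genes (from -0.13 for Slc1a2 to 0.11 for Aldh1l1), the 8 microglia genes (from -0.14 for Cx3cr1 to 0.32 for Aif1) or the 6 endothelial genes was called by edgeR. For Slc1a2 the exact permutation test gave p = 0.0476, against an unadjusted p of 0.0635 in edgeR. No share over all genes is given for the exact test. The log2 fold changes of the 6 endothelial genes were all negative, from -0.16 for Cdh5 to -0.01 for Ly6c1. Dopaminergic markers summed to 459 to 908 cpm in DJ-1+/+ and to 717 to 957 cpm in DJ-1-/- mice. In that list 9 of 9 genes had positive log2 fold changes. At an unadjusted p under 0.05 in edgeR, which called 2.83% of all genes, 4 were called, with 0 after adjustment. These were Th at 0.61 ± 0.24 (SE), Slc6a3 at 0.86 ± 0.35 (SE), Foxa1 at 0.99 ± 0.46 (SE) and Pitx3. Each of the 4 overlapped between the genotypes, and Slc6a3 was highest in DJ-1+/+ replicate 2, at 129.6 cpm. Exact two-sided permutation tests of cpm gave p = 0.0952 for Th, 0.127 for Slc6a3 and 0.0635 for Foxa1. Pitx3 had at most 1 count in each DJ-1+/+ library and 1 to 6 counts in each DJ-1-/- library, so no fold change is given for it. Foxa1 also had few counts, 3, 9, 1 and 3 in DJ-1+/+ and 8, 12, 7, 10 and 10 in DJ-1-/- libraries. The 8 choroid plexus genes and the 7 cerebellar genes all had negative log2 fold changes, with 5 and 4 called at that threshold, and their sums were highest in the DJ-1+/+ libraries named above. Their part in the values of the oligodendrocyte genes was not tested. Without the 3 libraries that stood apart in these sums, the log2 fold changes of Olig1, Tnr and Enpp6 were 0.09, 0.06 and -0.16. None of the 35 genes was called in this setting, in which DJ-1-/- replicate 5 was kept.

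Schwann cells make the myelin of nerves outside the brain, and they share Mbp, Mag, Mal, Cnp, Sox10, Gjb1 and Gjc3 with oligodendrocytes. Prx, the gene for periaxin of the Schwann cell sheath, was at 15.5 cpm in DJ-1-/- replicate 2 and at 0 to 2 cpm in the other 8 libraries. Ncmap was at 31.9 cpm in that library and at 6.19 to 15.6 cpm in the others. Drp2, at 49.9 to 77.4 cpm, supplied the larger part of the summed list in every library. In DJ-1-/- replicate 2 the 35 genes summed to 5866 cpm, between the other DJ-1-/- libraries (5332 to 6267 cpm), and Gjc3 was at 115 cpm.

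**Figure D5:**
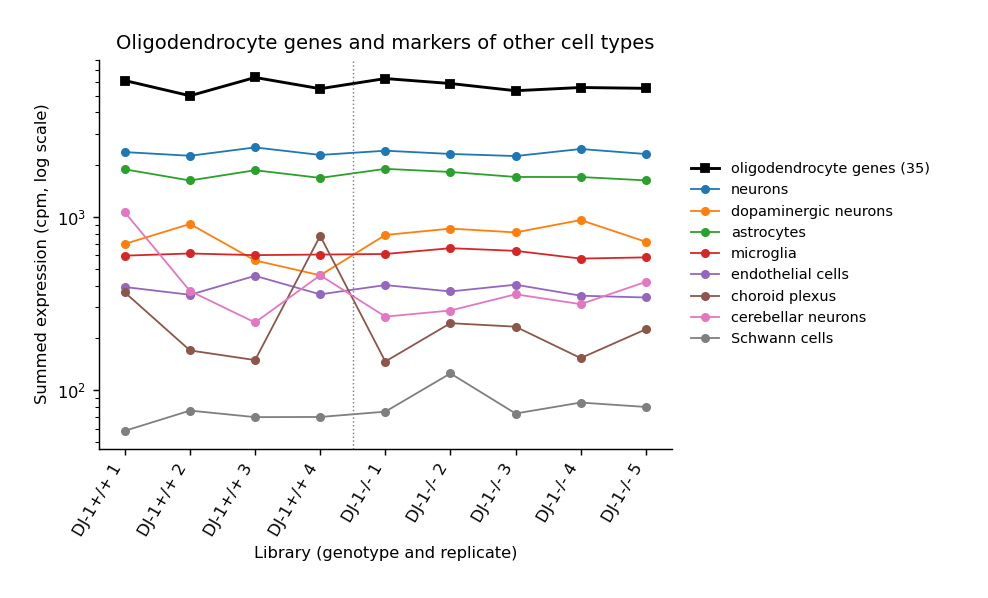
Summed level in cpm (y axis, log scale) of the 35 oligodendrocyte genes (black squares) and of the marker list of each other cell type (coloured points) in every library (x axis), with lines joining the points of one list and a dotted line between the genotypes. Choroid plexus markers are high in DJ-1+/+ replicates 1 and 4, cerebellar markers in DJ-1+/+ replicate 1 and Schwann cell markers in DJ-1-/- replicate 2.

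The 35 genes lay on 15 chromosomes of GRCm38, none of them on chromosome 4, where Park7 is (150897133 to 150914437, minus strand). Gjc3 lies on chromosome 5 (137953461 to 137963098, minus strand), Mobp on chromosome 9 (120149707 to 120181484, plus strand) and Gjb1 on the X chromosome (101376378 to 101385629, plus strand). For 16 of the 35 genes the annotation holds another gene that overlaps them. The other gene lies on the opposite strand for 15 of these and on the same strand for 4, which are Mobp, Evi2a (with Evi2), Pdgfra and Tnr. Their counts could hold reads of the other gene if the counting ignored strand or split shared reads.

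Sequence upstream of the start is shown for Gjc3, the one called gene, and for Mobp, a sheath gene with many counts and no call. RefSeq windows of 250 bases before the start (GRCm38.p6) matched 25 of the 35 genes, as 32 entries. The words ACAAAG and ACAATG, which Sox proteins bind, were searched on both strands and matches were counted without overlap. They occurred in 15 of the 32 entries (46.9%), against 25.2% of all 32851 entries. Counted by gene they occurred in 13 of the 25, since a gene with several entries counts more than once above. No share by gene is given for all entries, and the difference was not tested. The word CAGCTG, an E-box of the kind that Olig2 binds, occurred in 2 of the 32 entries (6.25%), against 13.0% of all. The window of Mobp held 6 of the Sox words and that of Gjc3 held 0, which says only that these letters are or are not in these windows. The bases from 250 to 51 before the RefSeq start are shown for both, 5′ to 3′ on the strand of the gene, with the Sox words in capitals. Mobp is at chr9:120149492-120149691 (plus strand) and Gjc3 at chr5:137963149-137963348 (minus strand). The RefSeq start of Mobp lies downstream of the GENCODE start given above, so its window is nearer to the latter.
Mobp: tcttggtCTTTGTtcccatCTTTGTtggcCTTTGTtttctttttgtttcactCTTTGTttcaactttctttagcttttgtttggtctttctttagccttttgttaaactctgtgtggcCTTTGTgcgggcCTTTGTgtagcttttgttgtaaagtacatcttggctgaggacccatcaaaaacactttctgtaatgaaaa
Gjc3: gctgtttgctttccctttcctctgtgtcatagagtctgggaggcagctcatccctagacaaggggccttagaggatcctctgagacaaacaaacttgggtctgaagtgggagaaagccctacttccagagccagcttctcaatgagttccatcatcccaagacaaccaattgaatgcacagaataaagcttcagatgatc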

How the data were processed

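RNA was isolated from snap-frozen midbrain, and libraries were made with a 3′ mRNA-seq kit. For each mouse the authors deposited UMI counts per Ensembl gene as whole numbers without normalization. The submitters' processing notes name fastp 0.20.0, STAR 2.7.3a, featureCounts 2.0.0 (Subread), UMI-tools 1.0.0 and GRCm38, and the strand setting of the counting is not given in the sources used here. Genes that a library did not list were set to 0 counts there. Symbols and positions are from GENCODE M21.

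Genes reaching a total of 10 counts were tested by genotype alone with edgeR 4.0.16 (TMM, quasi-likelihood) in R 4.3.3, with Benjamini-Hochberg adjustment over all of them, after the script was tested on simulated data. The standard error is the log2 fold change divided by the square root of F. Exact permutation tests of cpm used scipy 1.17.1. Within each genotype, no library was a copy of another (chi-square per degree of freedom 1.07 to 2.27 over 16 pairs). Pairs across the genotypes were not compared, and the test cannot tell whether 2 libraries came from 1 animal. The standard errors and intervals of log2 fold changes include the spread between animals. Alternatives were other scaling factors, other filters, DESeq2 1.42.0, Xist as a covariate, thinned counts, a replicate block and leaving out each library.

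Values in every library are given for Park7, for the 2 members of each role with the highest mean, for all transcription factors and early-stage genes, for members with an unadjusted p under 0.05 and for those without overlap, and other lists are given by their counts, called genes and extremes. For the choroid plexus, cerebellar and Schwann cell lists, in which single libraries stood apart, sums and counts are given. Otx2, Tcf7l2 and the Schwann cell genes named were picked after their values were seen. The members and lists were chosen with earlier results of these data known. Some genes of the lists of other cells and of further oligodendrocyte genes are not reported here.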

Additional observations from a re-analysis of the deposited data

Results flagged for a closer look

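Among the 35 genes and the marker sums, 88 groups of 4 or 5 libraries were examined with Dixon's ratio, the gap of the highest or lowest library to its neighbour divided by the range of the group. It was above the 95% critical value in 2 groups, where chance at about 1 in 20 would give 4.4. The cerebellar and choroid plexus sums of DJ-1+/+ libraries, described above as standing apart, did not pass it. Gpr37 was at 116 cpm in DJ-1-/- replicate 3, below the 146 to 158 cpm of the other DJ-1-/- libraries. The Schwann cell list summed to 125 cpm in DJ-1-/- replicate 2, above the 73.2 to 84.7 cpm of the other DJ-1-/- libraries.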

How the results depend on the processing

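The number of the 35 genes at an unadjusted p under 0.05 was 1 under every setting tried but 2 of them: it was 2 with no filter on low counts, where Ppp1r14a joined Gjc3 (unadjusted p = 0.0335, edgeR), and 0 without the 3 libraries that had markers of other tissue, a setting chosen after seeing the data. Without DJ-1+/+ replicate 3 the 1 gene called was Ppp1r14a (log2 fold change 0.41) in place of Gjc3. The number after adjustment was 0 throughout. The log2 fold change of Gjc3 ran from -0.29 to -0.20 over the alternatives, with unadjusted p from 0.0047 to 0.0576 (edgeR or DESeq2). Of the 35 genes, 24 changed sign under at least 1 of the 18 alternatives. The values of these 24 were at most 0.11 in size as reported and up to 0.24 in size under an alternative, so no direction should be read from them. Over all genes, 802 were called at an unadjusted p under 0.05 with no filter, 235 with DESeq2 and 338 without the 3 libraries, and leaving out 1 library gave 338 to 732, the lowest without DJ-1-/- replicate 2. After adjustment 36 genes were called with no filter, and leaving out 1 library gave 1 to 2, with 2 without DJ-1+/+ replicate 2 or 3. A floor of 3 counts per library was set by choice and not measured, and it touches none of the 35 genes.

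With the replicate number as a block, 8 genes passed the adjusted threshold, none of them among the 35, and 564 the unadjusted one. Whether the numbers pair the animals is not known. The correlation of the deviations of same-numbered libraries was 0.25, 0.02, -0.09 and -0.13. The highest correlations were 0.47, for DJ-1+/+ replicate 4 with DJ-1-/- replicate 5, and 0.38, for DJ-1+/+ replicate 3 with DJ-1-/- replicate 1. Such correlations cannot show whether same-numbered animals shared a batch or a litter.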
